A study of Homo sapiens with 40 samples.

Results

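The RAS genes HRAS and NRAS and 7 transcripts that report on or restrain ERK signalling were followed through RNA-seq counts of MI- and MII-spheres and of MDA-MB-231 cells. The members were listed by symbol, by a rule that itself uses no measured value: HRAS, NRAS, the phosphatase genes DUSP4, DUSP5 and DUSP6, the Sprouty genes SPRY2 and SPRY4, and the ETS factor genes ETV4 and ETV5, 9 of 60708 genes in the count tables. The members were chosen with earlier results of these data known, so their counts and medians beside all genes are descriptions. All 9 passed the low-count filter in every comparison.

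HRAS and NRAS are small GTPases that switch on RAF kinases when GTP-bound, and RAF, MEK and ERK then phosphorylate one another in turn. ERK drives transcription of its own inhibitors: DUSP6 and DUSP4 encode phosphatases that dephosphorylate MAP kinases in the cytoplasm and the nucleus, DUSP5 encodes a nuclear phosphatase for ERK, and Sprouty proteins act nearer the receptor. ETV4 and ETV5 encode ETS transcription factors whose genes are commonly used as readouts of ERK activity. In mammary epithelium the cascade is chiefly engaged by EGF receptor ligands.

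MI are MCF-10A cells, an immortalised mammary epithelial line, and MII are their HRAS-transformed derivative, which the labels call MCF-10A-HRAS without naming the allele or its promoter. Both were grown as 3D spheres and left untreated (Ctrl) or given TGFβ1 at 2.5 ng/ml for 16 h. MDA-MB-231, a triple-negative breast cancer line grown in 2D, carries activating mutations of its own in the RAS-RAF pathway and was sequenced as untreated wild type (WT), as SLUG knockout cells expanded from single-cell colonies after Cas9 editing, and after transfection with scramble control siRNA (Csi) or with siRNAs to SMAD2, SMAD3 and SMAD4 (siSMAD2/3/4). Each of these 8 groups held 3 libraries labelled biological replicates, so p-values set a difference against the spread between these libraries only. In bulk RNA, fewer cells of a type and less RNA per cell cannot be told apart.

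Libraries held between 14124688 and 38406952 counts (median 23557033), and the lowest count of a member in any library was 84, for ETV4 in TGFβ-stimulated MI-spheres. Across genes, Pearson's r between replicates (log2 CPM) was at least 0.994 in 7 groups, and it fell to 0.955 in the WT group, where replicate 2 stood apart. The epithelial marker CDH1 was at 527 CPM in untreated MI-spheres and 1.23 CPM in WT cells, and VIM was at 1.71 and 784 CPM. The basal markers were uneven within the epithelial lines: KRT14 was at 1.56 CPM in untreated MI-spheres, and TP63 was at 51.2 CPM there and 0.62 CPM in untreated MII-spheres. The 6 epithelial markers summed to 1190 to 1930 CPM per library in spheres and to 218 to 673 CPM in WT cells, with KRT5 at 0 in every WT library. The 4 mesenchymal markers summed to 6.52 to 24 CPM in spheres and 648 to 1060 CPM in WT cells. Not every marker followed its sum. CDH2, a mesenchymal marker, was at 1.18 CPM in WT cells and 1.54 CPM in untreated MI-spheres. ITGB4 made up most of the epithelial sum in WT cells, at 351 ± 268 CPM (SD, n = 3). In WT replicate 2 ITGB4 was at 660.5 CPM, above every untreated sphere library.

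Directions below are relative to TMM scaling, which assumes that most genes do not change. TPM, which divides counts by gene length, were used between genes within a library, since 1 short transcript, RN7SL1 (299 bases), took 47.4 to 53% of TPM in untreated MI libraries, 30.7 to 33.3% in untreated MII, 50.7 to 54.6% and 44.7 to 47% in stimulated MI and MII, 8.37 to 22.2% in WT, 15.9 to 25.5% in SLUG KO, and 0.00162 to 0.00295% in siRNA libraries. With libraries scaled by TPM in the same fits, an alternative chosen after the data were seen, the median log2 fold-change of all genes moved from 0.02 to 0.68 between untreated lines. Values that turned direction on that scale are given beside each result with this median.

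Promoter sequence is shown for HRAS, whose transcript separates the lines, and for DUSP6 and SPRY2, which among the members with an entry changed most under TGFβ in MI-spheres and under SMAD depletion. The RefSeq table (GRCh38.p14) matched 5 of the 9 members, HRAS, NRAS, DUSP6, SPRY2 and SPRY4. DUSP4, DUSP5, ETV4 and ETV5 were not matched. The 250 bases before the start are printed 5′ to 3′ on the gene's strand, with matches to the ETS letters CCGGAA on either strand in capitals. HRAS lies at chr11:535577-535826 (minus strand), DUSP6 at chr12:89352502-89352751 (minus strand) and SPRY2 at chr13:80341127-80341376 (minus strand).
HRAS: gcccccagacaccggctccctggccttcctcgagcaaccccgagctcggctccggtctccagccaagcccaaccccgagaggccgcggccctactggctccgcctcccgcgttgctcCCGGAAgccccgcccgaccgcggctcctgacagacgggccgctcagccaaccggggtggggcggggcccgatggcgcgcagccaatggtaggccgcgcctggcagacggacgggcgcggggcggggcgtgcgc
DUSP6: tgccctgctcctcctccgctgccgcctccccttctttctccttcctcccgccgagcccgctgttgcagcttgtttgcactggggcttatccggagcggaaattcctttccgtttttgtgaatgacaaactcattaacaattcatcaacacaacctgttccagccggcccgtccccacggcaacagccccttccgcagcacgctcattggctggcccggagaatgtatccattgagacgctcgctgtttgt
SPRY2: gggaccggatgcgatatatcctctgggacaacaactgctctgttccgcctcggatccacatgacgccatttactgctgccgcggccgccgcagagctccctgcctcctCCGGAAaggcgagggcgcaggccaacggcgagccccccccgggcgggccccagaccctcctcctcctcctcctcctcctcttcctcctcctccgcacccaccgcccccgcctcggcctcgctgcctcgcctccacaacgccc

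The ETS letters CCGGAA stood 133 to 128 bases before the HRAS start and 142 to 137 bases before this SPRY2 start, and in none of the other promoter entries of members. They were in 14.5% of 35116 RefSeq promoter windows of the same length. The shorter GGAA was not searched, and the DUSP6 window printed above holds it. The AP-1 letters TGANTCA (6.57% of windows), the CRE letters TGACGTCA (1.65%) and the palindromic SMAD letters GTCTAGAC (0.182%), searched on both strands, were not in any of these windows of members. No motif searched contains another. The sequences are those of the genomic gene, and counts do not separate the endogenous HRAS transcript from that of an introduced copy.

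HRAS and NRAS were compared first, since HRAS defines the MII line. HRAS was at 41.2, 39.6 and 41.4 CPM in the 3 untreated MI libraries and at 215, 223 and 222 CPM in the 3 untreated MII libraries. Every MII library stood far above every MI library, and the replicates of each line lay close together. The log2 fold-change was 2.45 (SE 0.0437, adjusted p = 1.23e-45, edgeR quasi-likelihood test), a 5.45-fold difference. NRAS went the other way, with 79, 81.8 and 80.9 CPM in MI-spheres against 69.1, 67.5 and 70.9 CPM in MII-spheres. These ranges did not overlap either, but the fall was small (log2 fold-change -0.21, SE 0.0476, adjusted p = 0.000127). With TPM scaling NRAS turned to 0.46 (adjusted p = 1.65e-07), which is -0.22 relative to the median of all genes on that scale. Set per length as TPM within each library, HRAS was at 0.898 ± 0.0346 (SD, n = 3) of NRAS in untreated MI-spheres and at 5.66 ± 0.176 times NRAS in untreated MII-spheres.

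In other groups the ratio was 0.944 ± 0.0955 in TGFβ-stimulated MI-spheres, 3.82 ± 0.17 in TGFβ-stimulated MII-spheres, 0.468 ± 0.0444 in libraries labelled SLUG KO, 0.603 ± 0.0495 with Csi and 0.581 ± 0.0586 with siSMAD2/3/4. In WT cells it was 0.453, 2.14 and 0.519, with replicate 2 apart from the other two and still below every MII library. Both parts of the ratio moved in that library: HRAS was 56.1, 98.7 and 69.6 CPM and NRAS 220, 82 and 238 CPM in WT replicates 1, 2 and 3.

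**Figure D1:**
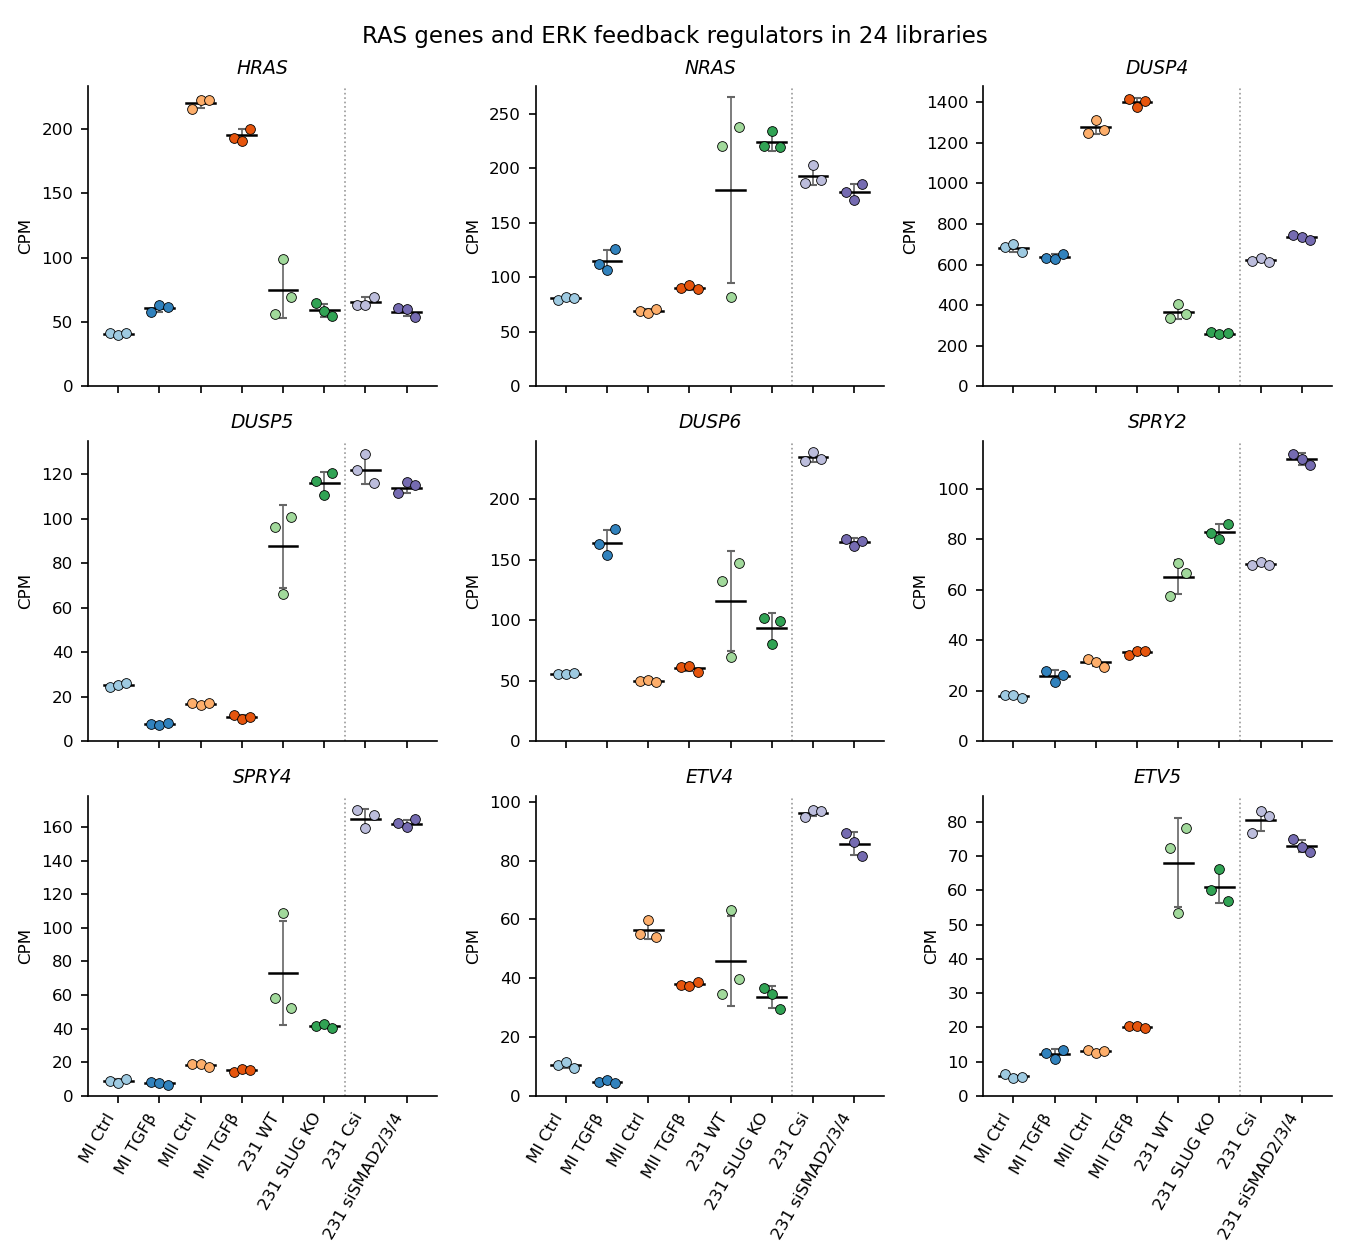
CPM (TMM-scaled over all libraries) of the 9 members on the vertical axis, by group; points are libraries, lines the means of 3 and bars 1 SD, the groups right of the spheres are MDA-MB-231, and the dotted line separates the siRNA libraries, which carry another batch label. HRAS in MII-spheres (191 to 223 CPM) lies above all other groups, DUSP6 rises with TGFβ in MI-spheres to 154 to 175 CPM, and WT replicate 2 stands apart for NRAS at 82 CPM.

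In untreated spheres, all 9 members differed between MII and MI, with 6 higher and 3 lower in MII-spheres at an adjusted p under 0.05. This stands beside 64.2% of the 17862 genes tested that were called in this comparison (31.7% higher, 32.5% lower), so that a call alone says little about the members. Of the 9, 4 were DEGs (absolute log2 fold-change above 1) and higher, HRAS, ETV4, ETV5 and SPRY4, against 12.5% of all genes tested. HRAS is among these 4 and defines the MII line, so it adds no separate evidence to this count or to the members' median. The median log2 fold-change was 0.91 for the members and 0.017 for all genes. CPM did not overlap between the lines for 9 of 9 members and for 67.6% of all genes. With TPM scaling 8 members were higher and 0 lower, and the share of called genes that were higher moved from 49.4% to 90.7%.

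Of the 3 phosphatase members, DUSP4 was higher in untreated MII-spheres and DUSP5 and DUSP6 were lower with TMM scaling. DUSP4 (ENSG00000120875.9) was the most abundant member per length in both lines, at 168 ± 15.5 TPM in untreated MI- and 502 ± 27 TPM in untreated MII-spheres (SD, n = 3), levels that rank genes within a line and carry the scale difference between lines. Its CPM were 688, 700 and 661 in MI against 1250, 1310 and 1260 in MII, well apart (log2 fold-change 0.91, SE 0.0344, adjusted p = 2.6e-30). DUSP5 was lower in MII, with 24.5, 25.3 and 26.3 CPM in MI and 16.9, 16.1 and 16.9 CPM in MII (log2 fold-change -0.60, SE 0.0742, adjusted p = 4.46e-10). DUSP6, a widely used transcript readout of ERK activity, differed little, at 55.4, 55.2 and 56.7 CPM in MI and 49.3, 50.2 and 48.9 CPM in MII. The MII libraries were the lower ones without overlap, and the log2 fold-change was -0.16 (SE 0.0535, adjusted p = 0.00843). With TPM scaling DUSP5 turned to 0.07 (adjusted p = 0.547) and DUSP6 to 0.51 (adjusted p = 3.1e-08), or -0.61 and -0.17 relative to the median of all genes.

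Both Sprouty genes and both ETS genes were higher in untreated MII-spheres. SPRY2 rose from 18.3, 18.3 and 17.2 CPM in MI to 32.5, 31.5 and 29.5 CPM in MII (log2 fold-change 0.81, SE 0.0703, adjusted p = 5.75e-15). SPRY4 was 8.87, 7.89 and 9.76 CPM in MI and 19.2, 19.3 and 17.4 CPM in MII (log2 fold-change 1.09, SE 0.0939, adjusted p = 3.6e-15). Neither gene had an MII library within the MI range. ETV4 showed the same size of difference as HRAS, from 10.4, 11.4 and 9.5 CPM to 55, 59.8 and 54.2 CPM (log2 fold-change 2.45, SE 0.0715, adjusted p = 1.87e-35). ETV5 rose from 6.25, 5.25 and 5.55 CPM to 13.3, 12.4 and 13.2 CPM (log2 fold-change 1.19, SE 0.111, adjusted p = 6.54e-14). Per length, ETV4 was at 46.0 ± 3.72 TPM and ETV5 at 6.43 ± 0.0709 TPM in untreated MII-spheres, so the pair stood at unequal levels. ETV4 shared 1.9% of its exonic bases with DHX8 and ETV5 shared 2.8% with DGKG, where fragments are not counted for either gene.

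Under TGFβ the lines again differed in all 9 members, with 7 higher and 2 lower in MII-spheres, beside 62.7% of 15878 genes called (31.1% higher, 31.6% lower). DEGs were HRAS (which defines the MII line), ETV4, SPRY4 and DUSP4, higher (12.2% of all genes), and DUSP6, lower (7.55%). The median was 0.80 for the members and 0.004 for all genes, and CPM did not overlap for 9 of 9 members and 67.3% of all genes. With TPM scaling the median of all genes was 0.36, 7 members were higher and 1 lower, and 79.3% of called genes were higher in place of 49.6%. ETV4 had the largest difference of the members (4.61, 5.24 and 4.21 CPM in MI, 37.8, 37.4 and 38.6 CPM in MII, log2 fold-change 3.09, SE 0.104, adjusted p = 1.93e-17). HRAS differed by a log2 fold-change of 1.75 (SE 0.0564, adjusted p = 7.31e-18) and DUSP4 by 1.21 (SE 0.0449, adjusted p = 1.04e-16). DUSP6 stood at 163, 154 and 175 CPM in MI and at 61.5, 62.4 and 57.3 CPM in MII, so that every MI library now lay far above every MII library (log2 fold-change -1.37, SE 0.0553, adjusted p = 5.91e-16). DUSP5, lower in untreated MII-spheres, was the higher one under TGFβ (log2 fold-change 0.56, SE 0.124, adjusted p = 0.000397). The log2 fold-changes of SPRY4 (1.11), ETV5 (0.80), SPRY2 (0.53) and NRAS (-0.27) kept the direction seen in untreated spheres, in libraries that the untreated comparison did not use. NRAS turned to 0.08 (adjusted p = 0.327) with TPM scaling, -0.27 relative to the median.

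**Figure D2:**
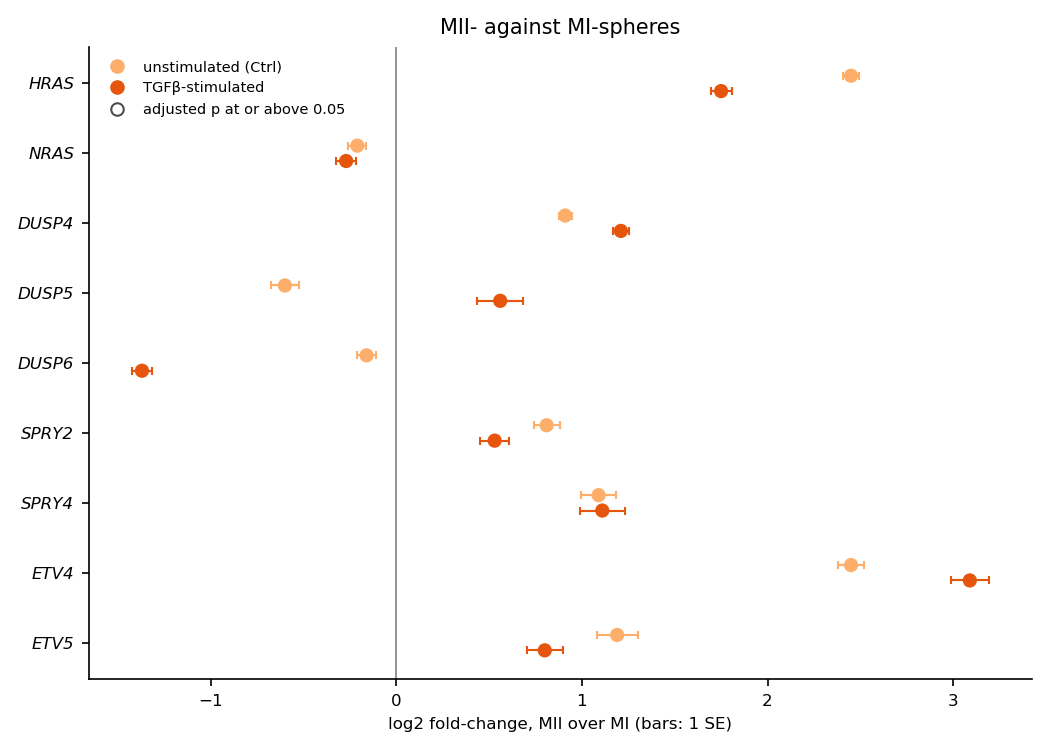
Log2 fold-change of each member in MII- over MI-spheres on the horizontal axis, with bars of 1 SE, in untreated (light) and TGFβ-stimulated (dark) spheres, 3 libraries per group. HRAS (2.45 and 1.75) and ETV4 (2.45 and 3.09) are highest in both, DUSP5 passes from -0.60 to 0.56, and DUSP6 from -0.16 to -1.37, all with TMM scaling; with TPM scaling the untreated values of DUSP5 and DUSP6 are 0.07 and 0.51.

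The remaining genes of the pathway were read from lists of 57 genes grouped by role, of which 54 were tested in untreated spheres, with 20 higher and 24 lower in MII and a median log2 fold-change of -0.04. Among RAS GTPase-activating proteins, which switch RAS off, 4 of 8 were higher and 2 lower. RASAL1, one of these, was at 2.24, 2.41 and 2.91 CPM in MI- and 144, 149 and 141 CPM in MII-spheres (log2 fold-change 5.87, SE 0.077, adjusted p = 4.67e-52), the largest difference in the lists. RASA1, the p120 RasGAP, was at 85.5 ± 2.09 CPM in MI and 359 ± 4.68 CPM in MII (SD, n = 3 each). Of 10 RAF, MEK and ERK kinases and scaffolds, 9 were lower and 1 was higher, with a median of -0.30, but with TPM scaling 2 were lower and 8 higher, with a median of 0.36 or -0.32 relative to all genes. Over all the lists, TPM scaling gave 44 higher and 7 lower of 54. MAPK3, which encodes ERK1, fell from 35.6 ± 1.42 to 13.5 ± 1.76 CPM.

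Of 7 other MAP kinase phosphatases tested, 4 were lower in untreated MII-spheres, with DUSP7, a cytoplasmic ERK phosphatase, at 14.7 ± 1.37 CPM in MI and 4.38 ± 0.647 CPM in MII, and DUSP1, an immediate early phosphatase gene, at 238 ± 4.59 and 82.6 ± 3.65 CPM. A further 2 were higher and 1 was not called, where TPM scaling gave 3 higher and 3 lower. Of 4 other SPRY and SPRED genes, 2 were higher and none was lower. Of 5 other inhibitors, 1 was higher, 2 were lower and 2 were not called, with a median of -0.25, where TPM scaling gave 5 higher and 0 lower. The higher one was ERRFI1, which restrains the EGF receptor, at 276 ± 5.94 against 91.2 ± 4.39 CPM. Of 12 other ERK-induced genes, 7 were higher and 5 lower. ETV1, the close relative of ETV4 and ETV5, was at 0.771, 1.3 and 0.363 CPM in MI- and 16.4, 16.6 and 16.9 CPM in MII-spheres (log2 fold-change 4.35, SE 0.17, adjusted p = 1.52e-29), and PHLDA1 was at 84 ± 1.73 and 617 ± 9.3 CPM. HBEGF, an EGF receptor ligand, fell from 207 ± 3.98 to 64.3 ± 2.84 CPM and MYC from 168 ± 1.22 to 66.9 ± 2.89 CPM. Under TGFβ, 22 of 54 were higher and 19 lower in MII, with RASAL1, ETV1, PHLDA1, RASA1 and ERRFI1 again the 5 with the largest rise and RASAL1 at a log2 fold-change of 4.71 (SE 0.0804, adjusted p = 5.43e-23).

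**Figure D3:**
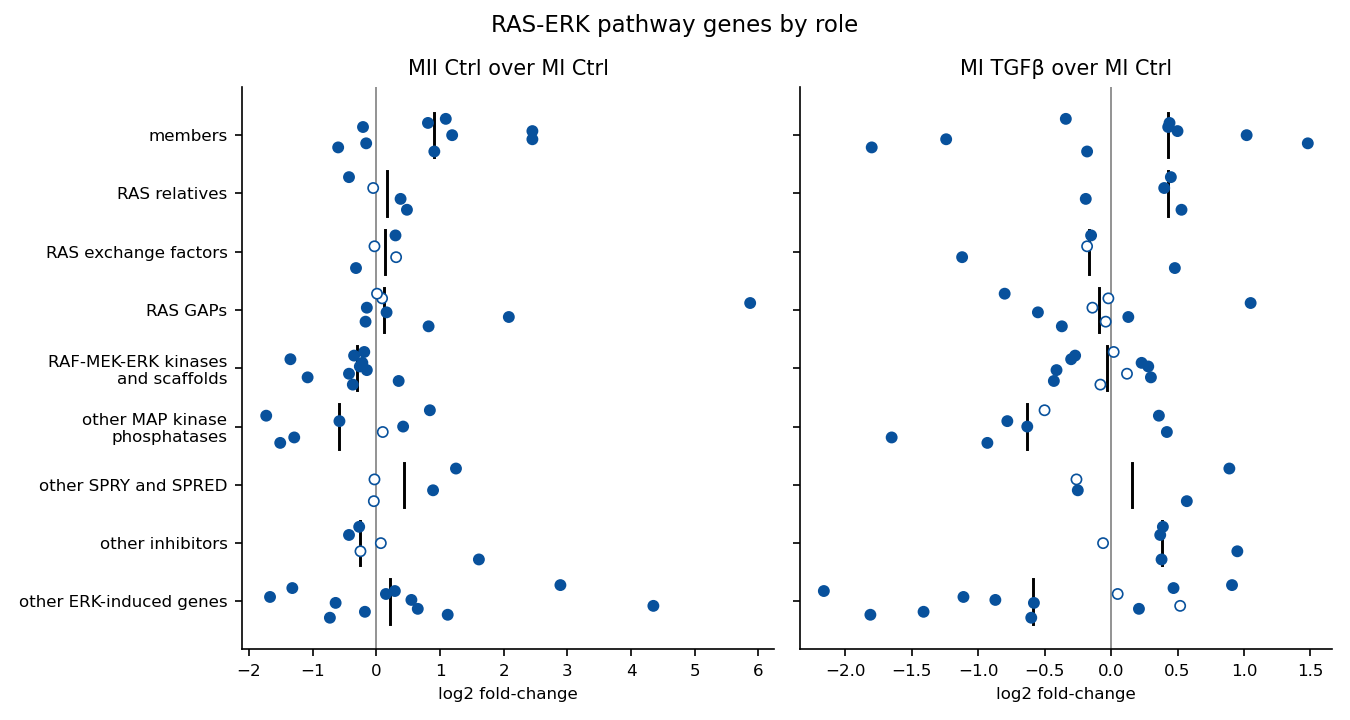
Log2 fold-change of each tested gene by role, untreated MII over untreated MI on the left and TGFβ over Ctrl in MI on the right; filled points have an adjusted p under 0.05 and black lines are list medians. The members' median is 0.91 on the left and 0.43 on the right, RASAL1 lies at 5.87, and the 2 panels share the untreated MI libraries.

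TGFβ changed all 9 members in MI-spheres, measured against the same untreated MI libraries as the line comparison, 5 higher and 4 lower, where 56% of 16863 genes were called (28.7% higher, 27.4% lower). DUSP6 and ETV5 were DEGs and higher (3.64% of all genes), and DUSP5 and ETV4 were DEGs and lower (9.92%). The members' median was 0.43 and that of all genes -0.016, and CPM did not overlap for 8 of 9 members and 62.7% of all genes. DUSP6 rose most, from 55.4, 55.2 and 56.7 CPM to 163, 154 and 175 CPM (log2 fold-change 1.48, SE 0.0554, adjusted p = 4.4e-15). DUSP5 fell most, from 24.5, 25.3 and 26.3 CPM to 7.52, 7.2 and 8.3 CPM (log2 fold-change -1.80, SE 0.0907, adjusted p = 6.02e-13). In both genes the stimulated and untreated libraries were widely separated, and in opposite directions. For DUSP6, 28.6% of exonic bases are shared with the antisense gene ENSG00000274021 and fragments in shared bases were not counted, and the effect of this on DUSP6 was not tested. The antisense gene was at 0.475 to 3.18 CPM across all libraries.

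The ETS pair also split under TGFβ in MI-spheres. ETV4 fell from 10.4, 11.4 and 9.5 to 4.61, 5.24 and 4.21 CPM (log2 fold-change -1.24, SE 0.131, adjusted p = 8.8e-08), whereas ETV5 rose from 6.25, 5.25 and 5.55 to 12.4, 10.8 and 13.5 CPM (log2 fold-change 1.02, SE 0.12, adjusted p = 3.77e-07). Neither gene's ranges overlapped. HRAS rose from 39.6 to 41.4 CPM to 57.5 to 63.2 CPM (log2 fold-change 0.50, SE 0.063, adjusted p = 1.07e-06), NRAS by 0.43 (SE 0.0574, adjusted p = 2.16e-06) and SPRY2 by 0.44 (SE 0.0818, adjusted p = 0.000117). DUSP4 fell by 0.18 on the log2 scale (SE 0.0491, adjusted p = 0.00323). SPRY4 overlapped between the groups (7.89 to 9.76 against 6.68 to 8.23 CPM), and its fall by 0.34 on the log2 scale (SE 0.125, adjusted p = 0.0273) was not called by DESeq2 (adjusted p = 0.194) nor without MI Ctrl replicate 1, MI Ctrl replicate 3 or MI TGFβ replicate 3 (adjusted p = 0.077, 0.146 and 0.108). The summed epithelial markers rose as well, from 1190 to 1230 CPM to 1880 to 1930 CPM, and the mesenchymal markers from 6.52 to 6.64 CPM to 17.1 to 19 CPM, and their part in these changes was not tested. With TPM scaling the median of all genes was -0.16 and 31.3% of called genes were higher in place of 51.2%, and 5 members were again higher and 4 lower.

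In MII-spheres, TGFβ changed 8 of 9 members, 4 higher and 4 lower, where 57.6% of 16396 genes were called (29.9% higher, 27.6% lower). None was a DEG, against 10.6% of all genes, and the members' median of 0.10 stood beside -0.018 for all genes. DUSP5 went from 16.9, 16.1 and 16.9 CPM to 11.9, 9.73 and 10.7 CPM (log2 fold-change -0.66, SE 0.1, adjusted p = 1.73e-07). ETV4 went from 55, 59.8 and 54.2 CPM to 37.8, 37.4 and 38.6 CPM (log2 fold-change -0.61, SE 0.0604, adjusted p = 1.27e-12). ETV5 went from 13.3, 12.4 and 13.2 CPM to 20.4, 20.3 and 19.8 CPM (log2 fold-change 0.61, SE 0.0895, adjusted p = 7.99e-08). The stimulated libraries lay outside the untreated range for all 9 members and for 61.7% of all genes. The epithelial markers summed to 1210 to 1260 CPM before and 1670 to 1700 CPM after stimulation and the mesenchymal markers to 9.72 to 12 and 22.1 to 24 CPM, and their part in these changes was not tested. KRT5 rose from 18.9 to 201 CPM, CDH1 from 565 to 716 CPM and EPCAM from 187 to 296 CPM, while ITGB4 was at 461 and 451 CPM.

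NRAS rose by 0.35 (SE 0.0497, adjusted p = 2.9e-08) and DUSP6 by 0.25 (SE 0.0568, adjusted p = 0.000182) on the log2 scale in MII-spheres, with DUSP6 at 49.3, 50.2 and 48.9 CPM before and 61.5, 62.4 and 57.3 CPM after stimulation. HRAS fell by 0.22 (SE 0.0381, adjusted p = 3.47e-06), from 215 to 223 CPM to 191 to 200 CPM, and SPRY4 by 0.33 (SE 0.0895, adjusted p = 0.00127). DUSP4 was called higher by 0.10 (SE 0.0322, adjusted p = 0.00754), but when a gene needed 10 counts or more in each library the value was 0.06 (adjusted p = 0.11). SPRY2 did not pass (0.15, SE 0.0664, adjusted p = 0.0569), with a 95% interval of 0.02 to 0.28 before adjustment, and it passed with no low-count filter (adjusted p = 0.0403), with all 12 sphere libraries in 1 fit (0.0428), without MII Ctrl replicate 1 (0.0395) and without MII TGFβ replicate 1 (0.0425). With TPM scaling, where the median of all genes was -0.45, 0 members were higher and 7 lower, and 7.4% of called genes were higher in place of 52%. On that scale NRAS (-0.08, adjusted p = 0.228), DUSP4 (-0.33, adjusted p = 3.66e-12), DUSP6 (-0.18, adjusted p = 0.0115) and SPRY2 (-0.29, adjusted p = 0.000381) turned direction and ETV5 was not called (0.17, adjusted p = 0.115). Relative to that median they were 0.37, 0.12, 0.27, 0.16 and 0.62.

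The difference of the 2 responses was tested itself, as the interaction of line and TGFβ over the 12 sphere libraries, and 6 of 9 members passed, 3 higher and 3 lower in MII, beside 22.4% of 18591 genes (12.6% higher, 9.75% lower). DUSP6 had the largest difference, -1.22 on the log2 scale (SE 0.077, adjusted p = 1.33e-15), its response being 1.48 in MI and 0.25 in MII. DUSP5 differed by 1.15 (SE 0.135, adjusted p = 1.1e-08) and ETV4 by 0.64 (SE 0.132, adjusted p = 0.000294), both falling in each line and falling less in MII. HRAS (-0.70, SE 0.0712, adjusted p = 4.05e-10) and DUSP4 (0.29, SE 0.0583, adjusted p = 0.000169) moved in opposite directions in the 2 lines. For ETV5 the difference of -0.40 (SE 0.145, adjusted p = 0.0434) was not called by DESeq2 (adjusted p = 0.0833), with no low-count filter (0.122), or without MI Ctrl replicate 2 or 3, MI TGFβ replicate 3, MII Ctrl replicate 1 or 3, or MII TGFβ replicate 3 (0.053 to 0.095). With TPM scaling, where the median of all genes was -0.31 and 14.4% of called genes were higher in place of 56.4%, DUSP4 turned to -0.01 (adjusted p = 0.941), ETV4 was not called (0.33, adjusted p = 0.0805) and SPRY2 (-0.59, adjusted p = 0.000175) and NRAS (-0.37, adjusted p = 0.00423) were called.

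The other three did not pass. SPRY2 (-0.28, SE 0.106, adjusted p = 0.0505) passed with the scaling of DESeq2 (0.044), with the gene-length offset (0.0434), with the stricter count filter (0.0321) and without MI Ctrl replicate 1 or 2, MI TGFβ replicate 2 or 3, MII Ctrl replicate 3, or MII TGFβ replicate 2 or 3 (0.00654 to 0.0469). NRAS (-0.07, 95% interval -0.21 to 0.08) and SPRY4 (0.01, 95% interval -0.28 to 0.30) had intervals that spanned 0.

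**Figure D4:**
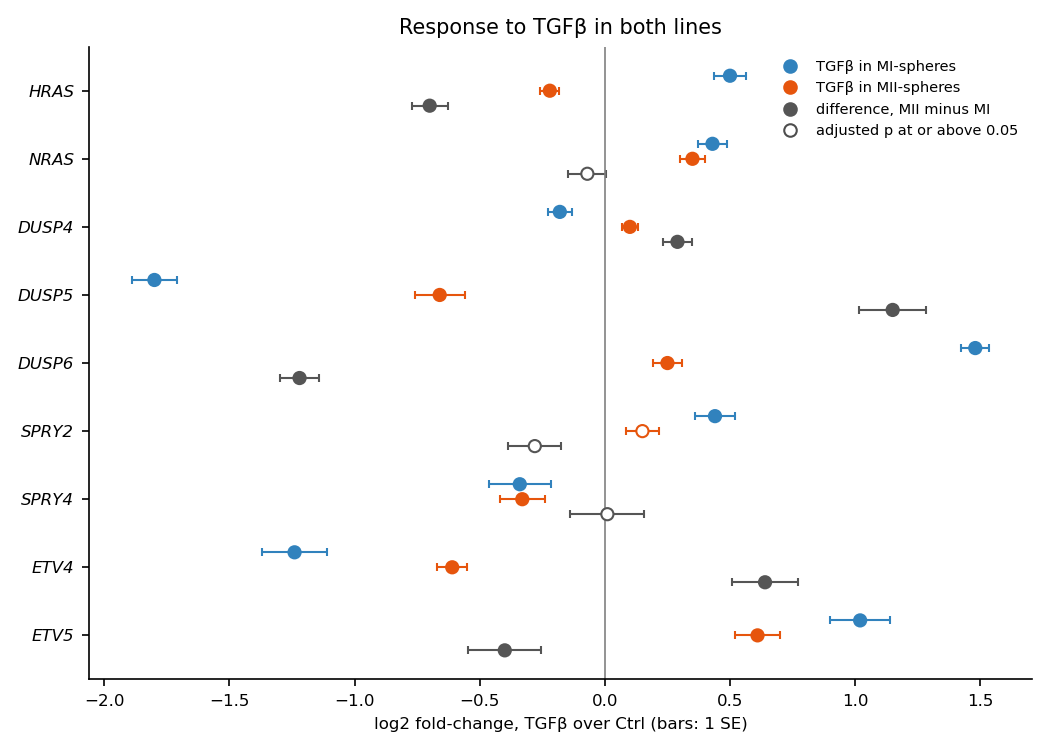
Log2 fold-change of each member with TGFβ over Ctrl on the horizontal axis, in MI-spheres (blue), in MII-spheres (orange) and as the difference MII minus MI (grey), with bars of 1 SE and open points for an adjusted p at or above 0.05. DUSP6 moves from 1.48 in MI to 0.25 in MII and DUSP5 from -1.80 to -0.66, while NRAS (0.43 and 0.35) and SPRY4 (-0.34 and -0.33) lie close together, all with TMM scaling; with TPM scaling NRAS (-0.08), DUSP4 (-0.33), DUSP6 (-0.18) and SPRY2 (-0.29) lie below 0 in MII and the DUSP4 difference is -0.01.

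Other pathway genes under TGFβ numbered 20 higher and 22 lower of 54 tested in MI-spheres, and 15 higher and 21 lower of 54 in MII-spheres, against 12 higher and 25 lower and 2 higher and 45 lower with TPM scaling. In MI the immediate early factor MAFF fell from 63.1 ± 1.86 to 14.8 ± 1.6 CPM, EGR1 from 45 ± 0.346 to 13.6 ± 3.02 CPM, the phosphatase gene DUSP10 from 62.1 ± 3.25 to 21 ± 1.76 CPM, and the receptor gene EPHA2 from 319 ± 7.77 to 127 ± 5.24 CPM (SD, n = 3 each). IL17RD and SPRY1, which restrain receptor signalling, rose from 5.03 ± 0.514 to 10.3 ± 0.727 CPM and from 9.96 ± 0.879 to 19.7 ± 0.906 CPM. RASAL1 rose from 2.52 ± 0.348 to 5.47 ± 0.826 CPM, and PHLDA1, an ERK-induced gene, from 84 ± 1.73 to 167 ± 5.21 CPM. In MII the immediate early genes EGR1 (97.1 ± 1.86 to 15.8 ± 0.743 CPM) and FOS (204 ± 2.79 to 68.3 ± 1.84 CPM) fell most, and ETV1 rose from 16.6 ± 0.262 to 28.2 ± 0.374 CPM. Of 12 other ERK-induced genes, 7 were lower in each line and 3 in MI and 4 in MII were higher.

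WT MDA-MB-231 cells were set beside untreated spheres. Cell line and culture (2D or 3D) cannot be told apart here, and both comparisons use the same 3 WT libraries. Against MI, all 9 members differed, 8 higher and 1 lower in WT, beside 54% of 18732 genes called (28.1% higher, 25.9% lower). The members' median was 1.78 and that of all genes 0.059, and CPM did not overlap for 9 of 9 members and 66.8% of all genes. ETV5 was at 72.5, 53.5 and 78.4 CPM and SPRY4 at 58.35, 108.9 and 52.18 CPM in WT, both above every sphere library. Against MI, ETV5 had a log2 fold-change of 3.58 (SE 0.223, adjusted p = 1.9e-05), SPRY4 of 3.04 (SE 0.324, adjusted p = 0.000214), ETV4 of 2.13 (SE 0.268, adjusted p = 0.00048), SPRY2 of 1.85 (SE 0.166, adjusted p = 9.39e-05) and DUSP5 of 1.78 (SE 0.207, adjusted p = 0.000323). DUSP4 alone was lower, at 336, 407 and 358 CPM (log2 fold-change -0.90, SE 0.163, adjusted p = 0.00274). With TPM scaling, where the median of all genes was 1.16 and 83.4% of called genes were higher in place of 52%, DUSP4 was 0.21 (adjusted p = 0.401), or -0.95 relative to the median.

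NRAS (1.15, SE 0.376, adjusted p = 0.0347), DUSP6 (1.06, SE 0.283, adjusted p = 0.016) and HRAS (0.87, SE 0.231, adjusted p = 0.0153) had the highest adjusted p-values of the members against MI. Leaving out any MI library lost all 3 calls (adjusted p from 0.0654 to 0.108), and leaving out WT replicate 1 or 3 lost those of NRAS (0.112 and 0.107) and DUSP6 (0.0562 and 0.0517). Without WT replicate 2, all 9 were called beside 74.9% of all genes, with NRAS at 1.47 (SE 0.0667, adjusted p = 2.72e-11), DUSP6 at 1.29 (SE 0.0691, adjusted p = 1.97e-10) and HRAS at 0.59 (SE 0.087, adjusted p = 2.03e-05).

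Against untreated MII-spheres, 8 of 9 members differed, 6 higher and 2 lower in WT, beside 55% of 19422 genes (27.4% higher, 27.7% lower). TPM scaling gave the same split of members, with the median of all genes at 0.43 and 64.5% of called genes higher in place of 49.7%. HRAS was lower in WT (log2 fold-change -1.55, SE 0.234, adjusted p = 0.00108) and so was DUSP4 (-1.79, SE 0.166, adjusted p = 9.86e-05). DUSP5 (2.40, SE 0.209, adjusted p = 7.42e-05), ETV5 (2.39, SE 0.2, adjusted p = 6.01e-05), SPRY4 (1.98), NRAS (1.38), DUSP6 (1.23) and SPRY2 (1.07) were higher. The NRAS call was lost without any one MII library and without WT replicate 1 or 3 (adjusted p from 0.0523 to 0.0584). ETV4 overlapped, at 34.7, 63.4 and 39.6 CPM in WT and 54.2 to 59.8 CPM in MII (log2 fold-change -0.29, SE 0.252, adjusted p = 0.362), the one member of 9 to do so, where 66.3% of all genes did not overlap. Without WT replicate 2 the ETV4 value was -0.59 (SE 0.0913, adjusted p = 5.02e-06) and 9 of 9 members were called beside 75% of all genes.

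Other pathway genes numbered 21 higher and 16 lower of 55 in WT against MI, and 19 higher and 16 lower against MII, where TPM scaling gave 36 and 6, and 24 and 11. All 4 other SPRY and SPRED genes tested were higher than in MI. ETV1 was at 70.7 ± 27.1 CPM in WT against 0.811 ± 0.469 CPM in MI (SD, n = 3 each), and IL17RD at 33.3 ± 7.7 against 5.03 ± 0.514 CPM. The immediate early genes FOS (2.85 ± 0.106 against 321 ± 3.89 CPM) and DUSP1 (12.5 ± 1.39 against 238 ± 4.59 CPM) were lower. Among 12 other ERK-induced genes, 5 were higher than in MI and 6 lower. FOSL1 was among the higher ones, at 58.5, 377.6 and 66.34 CPM in WT against 5.06 ± 0.973 CPM in MI.

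For the SLUG knockout the targeted gene was read first. SNAI2, which encodes SLUG, was at 30.2, 20.9 and 33.7 CPM in WT and at 63.5, 57.7 and 64.3 CPM in the libraries labelled SLUG KO (log2 fold-change 1.10, SE 0.214, adjusted p = 0.0399). The RNA was thus higher, not lower, in the labelled knockout, and counts over the whole gene do not test a small edit at the start of the coding sequence. Per the paper's methods, the knockout clones had been checked by ddPCR and by immunoblotting. No member differed by the edgeR test (0 of 9, beside 3.33% of 17428 genes), 2 had an unadjusted p under 0.05, and DESeq2 called 0. CPM did not overlap for 4 of 9 members, DUSP4, DUSP5, SPRY2 and SPRY4, and for 31% of all genes. The members' median was -0.34 and that of all genes -0.052. With TPM scaling 0 members were called, the median of all genes was -0.20, and 30.5% of called genes were higher in place of 43.4%.

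WT replicate 2 decided this comparison. It held 0.358 times the mean NRAS of the other WT libraries, 0.498 times their DUSP6, 1.97 times their SPRY4, 1.71 times their ETV4 and 1.57 times their HRAS. Without it, 5 of 9 members were called, beside 31.2% of all genes. DUSP6 was at 133 and 147 CPM in the remaining WT libraries and at 102.1, 80.3 and 99.2 CPM in those labelled SLUG KO, a log2 fold-change of -0.59 (SE 0.0988, adjusted p = 0.000291) where all 6 libraries gave -0.34. DUSP4 (-0.43, SE 0.0837, adjusted p = 0.00107), SPRY4 (-0.43, SE 0.0969, adjusted p = 0.00323) and ETV5 (-0.31, SE 0.0951, adjusted p = 0.0192) were lower as well, and SPRY2 was higher (0.41, SE 0.0913, adjusted p = 0.00297). HRAS (-0.10), NRAS (-0.04), DUSP5 (0.23) and ETV4 (-0.15) were not called. Of 54 other pathway genes tested with all 6 libraries, SPRY1, a further Sprouty gene, was the one called, at 20.9, 25.8 and 22.4 CPM in WT against 8.02, 6.85 and 8.28 CPM (log2 fold-change -1.61, SE 0.185, adjusted p = 0.00663).

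SMAD depletion was compared with Csi within the siRNA libraries, which were not compared with other groups because of their batch label. The targeted genes fell, SMAD2 from 90.5 ± 1.67 to 24 ± 0.366 CPM, SMAD4 from 55.4 ± 1.2 to 16.8 ± 1.11 CPM and SMAD3 from 266 ± 6 to 165 ± 6.82 CPM (SD, n = 3 each). Of the members, 7 of 9 changed, 2 higher and 5 lower, beside 36% of 17696 genes (16.3% higher, 19.7% lower), and none was a DEG (1.9% of all genes). CPM did not overlap for 7 of 9 and for 44.4% of all genes, and the members' median was -0.12 beside 0.004.

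SPRY2 rose from 70, 71.1 and 69.9 CPM with Csi to between 109.4 and 113.9 CPM (log2 fold-change 0.66, SE 0.0436, adjusted p = 1.37e-13). DUSP6 fell from 232, 239 and 233 CPM to 168, 161 and 165 CPM (log2 fold-change -0.52, SE 0.0391, adjusted p = 2.97e-12). In both genes the depleted libraries stood clear of the controls by many times the spread. DUSP4 rose by 0.24 (SE 0.0363, adjusted p = 4.12e-06), from 615 to 632 CPM to 723 to 744 CPM. ETV4 (-0.17, SE 0.0445, adjusted p = 0.00269), HRAS (-0.17, SE 0.053, adjusted p = 0.00988), ETV5 (-0.15, SE 0.046, adjusted p = 0.0109) and NRAS (-0.12, SE 0.043, adjusted p = 0.0299) fell slightly. SPRY4 (-0.03, 95% interval -0.11 to 0.05) and DUSP5 (-0.10, 95% interval -0.19 to -0.01, adjusted p = 0.0802) were not called, though DUSP5 was with TPM scaling (-0.12, adjusted p = 0.0486).

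Some of the small falls depended on single choices. The run names place siSMAD2/3/4 replicates 1 and 2 on a second flow cell, and when flow cell entered the fit NRAS was at -0.05 (adjusted p = 0.607) and ETV5 at -0.17 (adjusted p = 0.0541). HRAS was not called without Csi replicate 3 or siSMAD2/3/4 replicate 3 (adjusted p = 0.114 and 0.0935), ETV5 not without Csi replicate 2 (adjusted p = 0.0601), and NRAS not without Csi replicate 2 or siSMAD2/3/4 replicate 1 or 2 (adjusted p from 0.116 to 0.205) or with the gene-length offset (0.0807). DUSP5 was called without Csi replicate 3 (-0.14, adjusted p = 0.0346). Of 54 other pathway genes, 17 were higher and 10 lower. MRAS, a RAS relative, rose from 14.9 ± 0.292 to 24 ± 1.2 CPM, RASGRF1, an exchange factor, fell from 8.26 ± 0.802 to 4.21 ± 0.291 CPM, and the immediate early gene EGR1 fell from 6.47 ± 0.141 to 3.82 ± 0.526 CPM.

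**Figure D5:**
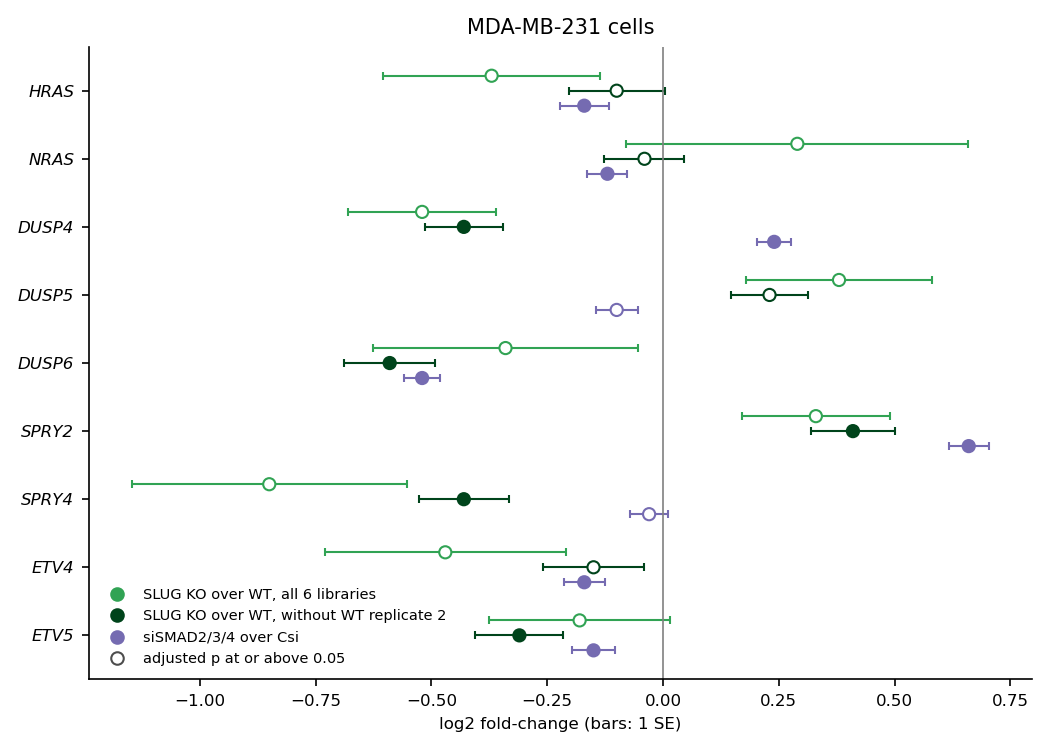
Log2 fold-change of each member in MDA-MB-231 cells on the horizontal axis, for libraries labelled SLUG KO over WT with all 6 libraries (light green) and without WT replicate 2 (dark green) and for siSMAD2/3/4 over Csi (purple), with bars of 1 SE and open points for an adjusted p at or above 0.05. The error of DUSP6 narrows from 0.286 to 0.0988 without that library, and SPRY2 (0.66) and DUSP6 (-0.52) lie farthest from 0 under SMAD depletion.

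Over the 6 groups that share a batch label, members ran in different orders of TMM-scaled CPM. HRAS was highest in untreated MII-spheres (220 ± 4.09 CPM) and lowest in untreated MI-spheres (40.7 ± 1.01 CPM), with WT, TGFβ-stimulated MI-spheres and SLUG KO overlapping in pairs between them. DUSP4 ran from stimulated MII-spheres (1400 ± 21.3 CPM) down to SLUG KO (260 ± 5.22 CPM) with no neighbours overlapping. DUSP5 had the widest span, 15.1-fold from SLUG KO (116 ± 4.92 CPM) to stimulated MI-spheres (7.67 ± 0.564 CPM). DUSP6 was highest in stimulated MI-spheres (164 ± 10.7 CPM) and lowest in untreated MII-spheres (49.5 ± 0.631 CPM). ETV4 was highest in untreated MII-spheres (56.4 ± 3.04 CPM), which overlapped WT, and SPRY2, SPRY4 and ETV5 were highest in MDA-MB-231 cells.

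The genes whose mean log2 CPM over these 6 groups (18 libraries) followed a member most closely were sought among 8318 genes, as a description only. For HRAS they were FPGS (Pearson's r = 0.992), NALCN and AREG, for ETV4 HIP1R (0.993), PTCH1 and GPSM1, for DUSP6 SLC2A1 (0.990), NPM3 and SLC12A8, and for DUSP5 KLB (0.992), CHST15 and C2CD2L. Those of DUSP4 were ARID5B (0.998), RASGEF1B and RBM4, of NRAS TMEM14B (0.997), SGMS1 and SMN2, of SPRY2 MTMR1 (0.996), RPL39L and SUSD1, of SPRY4 RAPH1 (0.999), EXO5 and DPYD, and of ETV5 NELFB (0.997), EEIG2 and DCBLD2. Among the members, SPRY2 and ETV5 were closest to each other (r = 0.982), whereas the closest member to HRAS was DUSP4 (0.726) and to DUSP6 was NRAS (0.626). The points share lines, depth and the scaling, and SMN2 has a near-identical copy that makes its counts uncertain.

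HRAS (ENSG00000174775.18) lies at chr11:532242-537321 on GRCh38 in the annotation used for counting, NRAS (ENSG00000213281.5) at chr1:114704469-114716771, DUSP5 (ENSG00000138166.6) at chr10:110497907-110511533 and DUSP6 (ENSG00000139318.8) at chr12:89347235-89352501. SPRY2 (ENSG00000136158.12) lies at chr13:80335976-80341126, SPRY4 (ENSG00000187678.10) at chr5:142310427-142326455, ETV4 (ENSG00000175832.13) at chr17:43527844-43579620 and ETV5 (ENSG00000244405.8) at chr3:186046314-186110318. Counts cover all annotated exons of each gene, untranslated regions included.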

How the data were processed

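RNA-seq of 24 libraries in 8 groups of 3 was used, with the 16 ATAC-seq samples set aside. Per the labels and methods, Trimmomatic was used for trimming and STAR for alignment (GRCh38.p13), and the authors deposited raw counts per gene for each library, made with featureCounts (Subread 2.0.0) over GENCODE 38 exons. Per the file headers, both ends had to map with a quality of at least 30, strand was ignored, and fragments shared by overlapping genes were not counted. Gene symbols were matched by Ensembl gene ID without its version (60463 of 60708 genes, 99.6%).

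Fits of each comparison used the libraries of its groups and edgeR 4.0.16 under R 4.3.3 (filterByExpr, TMM, quasi-likelihood test, Benjamini-Hochberg adjustment over all genes tested), and the interaction on the 12 sphere libraries. A gene changed at an adjusted p under 0.05 and was a DEG with an absolute log2 fold-change above 1. CPM were scaled over all 24 libraries, so a ratio of CPM can differ slightly from a fitted fold-change, and TPM used the exon lengths in the files. Fitted SE are the log2 fold-change over the root of the F statistic. With 3 libraries a side, exact permutation p-values have a minimum of 0.1. Fits of the untreated line comparison, TGFβ in MII, the interaction and SLUG KO were run on simulated counts. For SLUG KO no minimum share of recovered changes was required, and the other comparisons were not simulated. Each group held 3 libraries, which limits the precision of the errors, and members had at least 84 counts in every library.

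The members and lists were chosen with earlier results of these data known. Named were the members, per comparison genes of the pathway lists with the largest changes (up to 5 in each direction, called and not overlapping), the targeted genes, the 3 genes most like each member, and cell line markers. Alternatives were DESeq2 1.42.0, edgeR scaled by its size factors, dropping the low-count filter, a minimum of 10 counts per library, an offset for gene length, a replicate block without and with that offset, 1 joint fit of the spheres, a flow cell term, and each library left out in turn. Libraries scaled by the TPM denominator were added after the data were seen. Same-numbered libraries were not paired: their deviations from group means correlated between -0.218 and 0.181, and in no comparison did every pair exceed 0.1. Figures were drawn with matplotlib.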

Additional observations from a re-analysis of the deposited data

Results flagged for a closer look

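The response to TGFβ differed between MII- and MI-spheres by the interaction test for 6 of 9 members, beside 22.4% of all genes. On the log2 scale (MII minus MI) the difference was -1.22 for DUSP6, 1.15 for DUSP5, -0.70 for HRAS, 0.64 for ETV4, -0.40 for ETV5 and 0.29 for DUSP4. The ETV5 call was lost with DESeq2 (adjusted p = 0.0833), with no low-count filter (0.122) and without any one of 6 libraries (0.053 to 0.095), and with TPM scaling DUSP4 (-0.01, adjusted p = 0.941) and ETV4 (0.33, adjusted p = 0.0805) were not called. Untreated levels of these genes already differed between the lines: ETV4 stood at 10.4 ± 0.955 CPM in MI and 56.4 ± 3.04 CPM in MII (SD, n = 3 each), DUSP5 at 25.4 ± 0.918 and 16.6 ± 0.49 CPM, and DUSP6 at 55.7 ± 0.824 and 49.5 ± 0.631 CPM. The part of these starting levels in the differences was not tested. For this section, groups of 3 libraries were not searched for single outlying libraries. WT replicate 2 was seen to stand apart in the comparisons above.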

How the results depend on the processing

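Of 1152 log2 fold-changes of members under alternatives other than TPM scaling, 1086 kept their side of the threshold, 43 were no longer called, 23 became called and 0 of the called ones turned sign. Values called in neither fit were counted as kept whatever their sign, such as NRAS in SLUG KO (0.29, and -0.04 without WT replicate 2). The number of members changed moved by more than 1.5 times in 1 case, SLUG KO without WT replicate 2, where it was 5. Over the leave-outs it ranged from 0 to 5 for SLUG KO, and over all of these alternatives from 6 to 9 against MI and 5 to 7 for siSMAD2/3/4 and the interaction. Counts over all genes moved most in SLUG KO, where 581 genes were called: 1204 with DESeq2, 973 with no low-count filter, 260 with at least 10 counts in every library, 255 with the replicate block, 186 with the block and the gene-length offset, and 133 to 5592 over the leave-outs. With at least 10 counts in every library, the counts in WT against MI and MII fell from 10107 to 6527 and from 10691 to 6742. The size factors of DESeq2 and the gene-length offset kept the median of all genes within 0.1 of its value. TPM scaling, added after the data were seen, moved it to 0.68 and 0.36 between the lines (untreated and stimulated), -0.16 and -0.45 for TGFβ in MI and MII, -0.31 for the interaction, 1.16 and 0.43 for WT against MI and MII and -0.20 for SLUG KO, with -0.01 for siSMAD2/3/4. It turned the direction of NRAS (0.46), DUSP5 (0.07) and DUSP6 (0.51) between untreated lines, of NRAS (0.08) between stimulated lines, of NRAS (-0.08), DUSP4 (-0.33), DUSP6 (-0.18) and SPRY2 (-0.29) for TGFβ in MII, of DUSP4 in the interaction (-0.01) and of DUSP4 in WT against MI (0.21). Genes called in the interaction went from 4156 to 7109, and 8 members were called for siSMAD2/3/4.

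With the replicate block, SPRY2 passed in the interaction (-0.29, adjusted p = 0.0479, and -0.30, adjusted p = 0.0408 with the gene-length offset), which gave 7 members in place of 6. With the block and the offset, HRAS (-0.14, adjusted p = 0.0512) and NRAS (-0.10, adjusted p = 0.0991) were not called for siSMAD2/3/4, nor was NRAS against MI (0.96, adjusted p = 0.0595). The block changed no other call of a member. The lone libraries left by a leave-out are assumed to vary like the others, and the causes of these changes were not tested.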
